A study of Mus musculus with 6 samples.

Results

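The genes described here encode membrane transporters of amino acids, sugars and monocarboxylates, measured in sciatic nerve of mice on postnatal day 2. They were taken by symbol, as members of 10 solute carrier (Slc) families: Slc1, Slc2, Slc3, Slc5, Slc6, Slc7, Slc16, Slc36, Slc38 and Slc43. This set of genes was chosen with earlier results of these data known. A total of 93 such genes had a probe set with a single gene symbol, and 78 were kept, of 14550 genes kept in all. A gene was kept when its log2 value reached 4 on at least 3 of the 6 arrays, and the probe set with the highest mean over the arrays stood for the gene.

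All pups were of mixed strain, and each group had 3 samples, 1 per Affymetrix Mouse Genome 430 2.0 array. The mutants (genotype DhhCre+ HDAC1-2 dKO, dKO below) lacked both histone deacetylase genes, Hdac1 and Hdac2, in Schwann cells, and hypomyelination of peripheral nerve is given as their disease state. The controls (genotype DhhCre–) were littermates. Cre was driven by Dhh, the desert hedgehog gene, which is active in the Schwann cell lineage; loss of either gene in other cells of the nerve was not measured. The perineurium had been removed, and how many nerves or pups stand behind a sample is not given in the sources used here, so a p-value reflects only how far these samples spread. In bulk nerve RNA, fewer cells of a type and less RNA per cell cannot be told apart.

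Nutrients enter cells through these carriers. The Slc2 (GLUT) and Slc5 (SGLT) families move mainly sugars, and the Slc16 (MCT) family moves lactate, pyruvate, ketone bodies and other substrates. The Slc1, Slc6, Slc7, Slc36, Slc38 and Slc43 families move mostly amino acids, and Slc3 genes encode heavy chains that bring Slc7 light chains to the cell surface. In peripheral nerve, glucose crosses the blood-nerve barrier through GLUT1, the product of Slc2a1, and Schwann cells are known to exchange lactate with axons through MCTs.

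The targeted genes were lower on every dKO array. Hdac1 read 10.36 to 10.48 on the control arrays and 8.75 to 8.96 on the dKO arrays, and Hdac2 read 12.33 to 12.34 and 10.81 to 11.22. Over the genes kept, arrays correlated at 0.980 to 0.991 within groups and at 0.925 to 0.963 between them.

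Of the 78 transporter genes, 12 rose in dKO nerves (15.4%, against 12.6% of all genes kept) and 9 fell (11.5%, against 9.38%), at an adjusted p under 0.05 in limma. The share called was 26.9%, against 22.0% of all genes kept, and this difference was not tested. The median log2 change (dKO minus control) was 0.05, against 0.01 for all genes, so the set as a whole had no common direction. The largest changes were the fall of Slc36a2, a proton-coupled carrier of small amino acids, and the rise of Slc38a4, a sodium-coupled carrier of neutral amino acids. Of the 9 genes called with a log2 change of at least 1 in size, 5 rose (Slc38a4, Slc16a9, Slc7a10, Slc2a13 and Slc38a1) and 4 fell (Slc36a2, Slc16a13, Slc16a7 and Slc7a2). Control and dKO arrays did not overlap for 36 of the 78 genes (46.2%, against 40.9% of all genes), and 15 of these 36 were not called. The standard error (SE) of a change was 0.13 to 0.47.

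**Figure D1:**
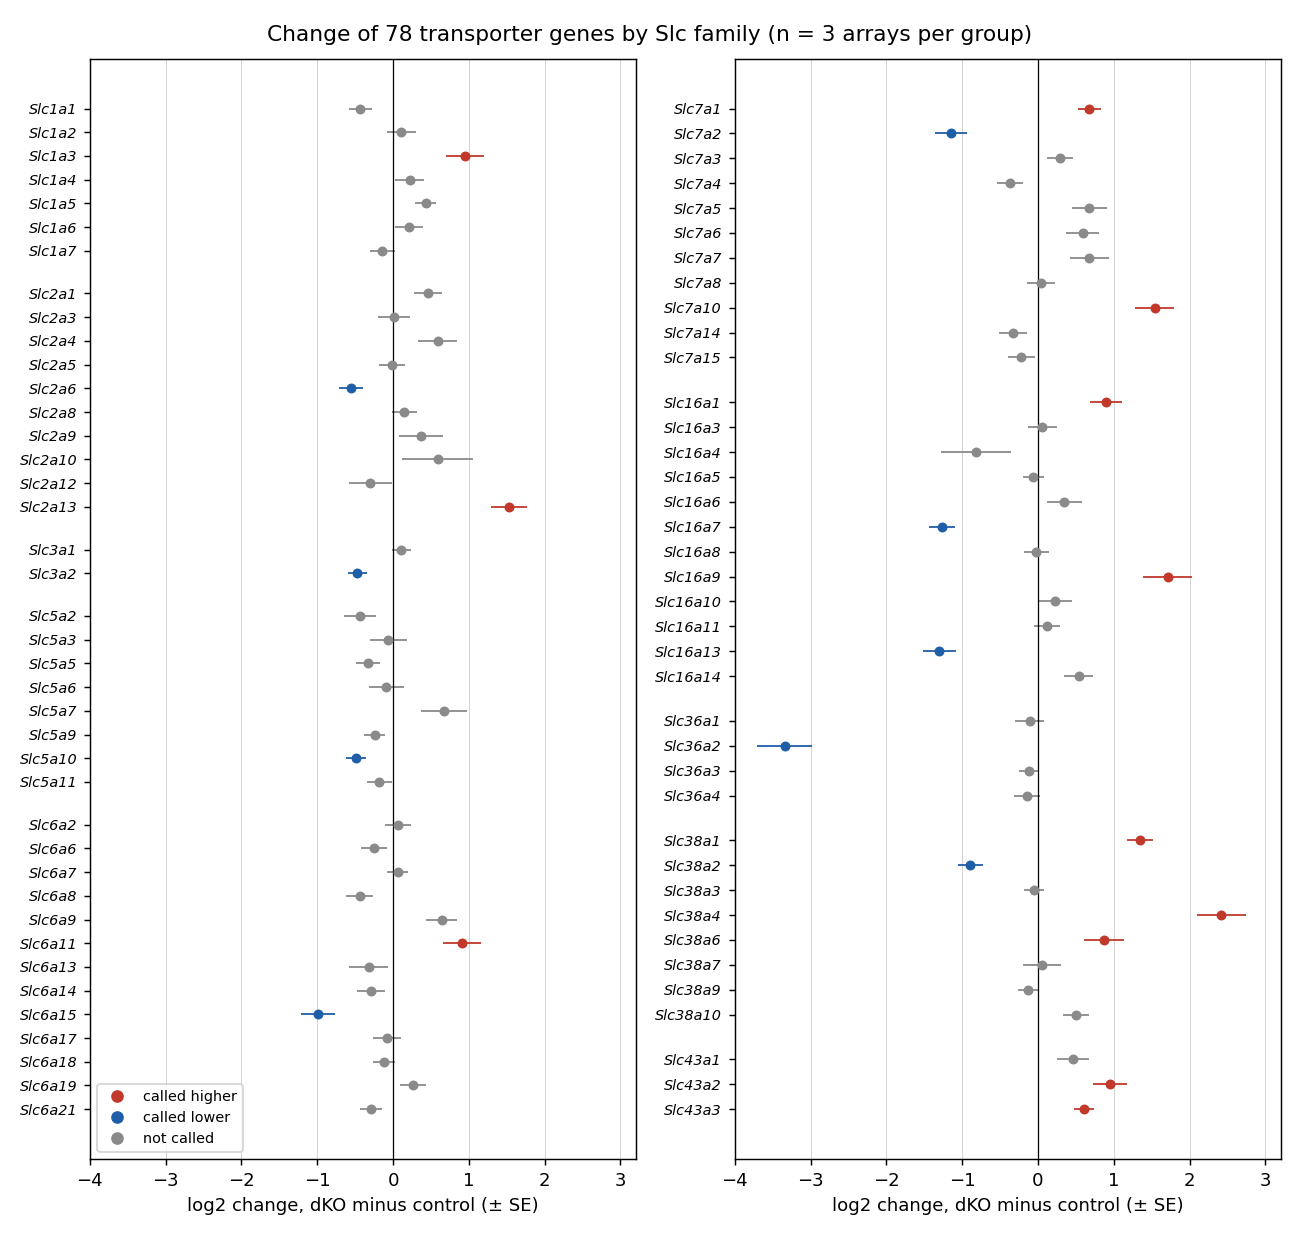
Log2 change (dKO minus control) of the 78 transporter genes by Slc family, with points at the fitted change and bars of 1 SE (n = 3 arrays per group). The 12 genes called higher and the 9 called lower are coloured, and Slc36a2 at -3.34 and Slc38a4 at 2.42 lie farthest from 0.

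Every kept transporter gene reached the limit of 4 on at least 1 array of each group. Just inside the limit, the third highest value was 4.07 for Slc6a19 and 4.08 for Slc6a14, and just outside it was 3.83 for Slc6a5 and 3.78 for Slc6a16. The 15 genes under the limit were Slc2a2, Slc5a1, Slc5a8, Slc5a12, Slc6a3, Slc6a4, Slc6a5, Slc6a12, Slc6a16, Slc7a9, Slc7a11, Slc7a12, Slc7a13, Slc16a12 and Slc38a5. Among them, Slc7a11, which encodes the light chain of the cystine-glutamate exchanger, read 2.75 to 2.99 in control and 2.89 to 3.37 in dKO nerves.

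Transcripts of other nerve cells also differed between the groups. The counts below stand beside 12.6% of all genes kept called higher and 9.38% called lower. Pericyte markers rose in 4 of 6 cases, and the log2 of their summed level was 11.34 to 11.48 in control and 11.79 to 12.17 in dKO nerves. Fibroblast markers rose in 4 of 7 cases (sums of 14.72 to 14.87 and 15.00 to 15.07). Most of this sum came from Col1a1 and Col3a1, which were not called (log2 changes of 0.12 and 0.11). Of the 4 that rose, Dpt read 3.10, 3.52 and 4.24 in control nerves, so it passed the limit through its dKO arrays. Macrophage markers rose in 1 of 8 cases (Aif1, with sums of 10.57 to 10.98 and 11.13 to 12.13). Of 7 endothelial markers 0 were called, with sums of 9.90 to 10.31 and 10.36 to 10.87. Of 6 Schwann cell markers, S100b and Erbb3 fell and Ngfr rose, with sums of 12.97 to 13.30 and 12.42 to 12.69. Of 7 axon markers Snap25 rose and Syp fell (10.80 to 11.19 and 11.16 to 11.41), and 0 of 5 muscle markers (6.94 to 7.50 and 7.20 to 7.30) and 0 of 3 erythroid markers (7.54 to 8.23 and 7.14 to 8.87) were called. Every defining marker of these lists passed the limit except the erythroid gene Hemgn. The part of these cells in the transporter changes was not tested. Among these markers, Dcn lost its call without control 2 or without dKO 2, Lum without control 1 or 2 or dKO 2 or 3, and Aif1 without control 2 or 3 or dKO 2. Over all alternatives, the highest adjusted p was 0.0618 for Dcn, 0.0879 for Lum and 0.0858 for Aif1, and the pericyte marker Rgs5 lost its call with each array left out (up to 0.118).

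RefSeq (GRCm38.p6) promoters were at hand for 55 of the 78 genes and for 14 of the 21 called. Slc38a1 and Slc43a3, which rose, and Slc6a15, Slc7a2, Slc16a7, Slc16a13 and Slc36a2, which fell, had none. The 4 genes that fell by at least 1 on the log2 scale are thus missing from the counts below. Those called lower that were searched were Slc2a6, Slc3a2, Slc5a10 and Slc38a2, and only Slc38a2 kept its call in every alternative fit. In the 250 bases before each start, both strands were searched for GTGGGCG, the core letters of EGR sites, since Egr2 drives the myelin program of Schwann cells. A gene counted when any of its listed promoters held the letters. This was so for 6 of 10 genes called higher (Slc2a13, Slc6a11, Slc7a1, Slc7a10, Slc16a9 and Slc43a2) and for 1 of 4 called lower (Slc38a2), against 18.2% of the 55 transporter genes and 13.8% of all genes kept that had a promoter. Counted per promoter, since some genes have several, it was 6 of 14 for the genes called higher and 1 of 5 for those called lower, against 11.7% of the promoters of all genes kept. GGGCGG, a GC box that can share letters with it, occurred in 9 of the 10 and 3 of the 4, against 60.2% of all genes. TGATGNAA, a C/EBP-ATF element, occurred in 0 of the 14 (2.52% of all genes), and CACGTG, an E-box, in Slc16a1 alone (9.44%). A match describes letters and is no evidence of binding. The promoters below are those of the 3 genes with the motif that rose by at least 1 on the log2 scale and of Slc38a2, which fell; capitals mark GTGGGCG or its complement CGCCCAC, and each runs 5′ to 3′ on the gene's strand. Slc2a13 lies at chr15:91573262-91573511 (minus strand), Slc7a10 at chr7:35186135-35186384 (plus strand), Slc16a9 at chr10:70245026-70245275 (plus strand) and Slc38a2 at chr15:96699729-96699978 (minus strand).
Slc2a13: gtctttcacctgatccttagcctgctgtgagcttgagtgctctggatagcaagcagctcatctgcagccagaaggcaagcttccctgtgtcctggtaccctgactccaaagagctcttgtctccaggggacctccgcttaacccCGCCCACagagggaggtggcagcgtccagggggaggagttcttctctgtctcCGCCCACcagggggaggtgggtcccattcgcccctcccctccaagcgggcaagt
Slc7a10: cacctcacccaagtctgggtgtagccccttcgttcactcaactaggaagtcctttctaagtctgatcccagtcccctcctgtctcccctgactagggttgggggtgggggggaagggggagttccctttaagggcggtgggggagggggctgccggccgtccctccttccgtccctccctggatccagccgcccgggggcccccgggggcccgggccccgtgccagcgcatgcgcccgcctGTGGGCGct
Slc16a9: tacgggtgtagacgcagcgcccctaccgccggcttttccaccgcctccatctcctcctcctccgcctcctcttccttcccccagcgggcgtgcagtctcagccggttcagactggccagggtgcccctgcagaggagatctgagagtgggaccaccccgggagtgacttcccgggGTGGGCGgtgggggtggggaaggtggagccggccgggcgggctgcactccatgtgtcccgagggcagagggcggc
Slc38a2: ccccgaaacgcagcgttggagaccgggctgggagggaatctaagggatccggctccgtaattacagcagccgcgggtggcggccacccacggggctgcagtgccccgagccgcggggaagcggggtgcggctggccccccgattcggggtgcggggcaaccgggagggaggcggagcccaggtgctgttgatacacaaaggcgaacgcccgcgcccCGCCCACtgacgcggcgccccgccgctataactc

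Slc36a2 had the largest change of the set. It encodes PAT2, also called tramdorin 1, which carries glycine, alanine and proline with protons and has been described in myelinating Schwann cells. Slc36a2 read 11.54, 11.90 and 11.29 on control arrays 1, 2 and 3 and 9.01, 7.46 and 8.22 on dKO arrays 1, 2 and 3. Every dKO value was far under every control value, and dKO 2 was the lowest. The level was 10.2-fold lower (log2 change -3.34, SE 0.36, adjusted p = 0.000610), and the gene ranked 24 of 14550 from the most negative change. Its neighbours on chromosome 11, Slc36a1, which encodes the lysosomal carrier PAT1, and Slc36a3, had changes of -0.11 (SE 0.19, adjusted p = 0.736) and -0.12 (SE 0.13, adjusted p = 0.545) and did not pass. The last member of the family, Slc36a4, was at -0.14 (SE 0.17, adjusted p = 0.602).

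Sodium-coupled neutral amino acid transporters of the Slc38 family rose in 3 of 8 cases and fell in 1, against 12.6% and 9.38% of all genes. Slc38a4, an imprinted gene that encodes SNAT4, read 5.65, 6.72 and 7.03 in control and 8.77, 8.85 and 9.04 in dKO nerves. The control arrays spread widely, control 1 being lowest, yet all lay under the dKO arrays, which were close together. The level was 5.36-fold higher (log2 change 2.42, SE 0.32, adjusted p = 0.00148), and the second probe set was called too, at 1.86. Slc38a1, which encodes the glutamine carrier SNAT1, read 7.20, 7.49 and 7.70 in control and 8.79, 8.65 and 9.00 in dKO nerves, again without overlap. It was 2.55-fold higher (log2 change 1.35, SE 0.17, adjusted p = 0.00132), and its second probe set was called at 0.71.

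Slc38a2, which encodes SNAT2, a carrier induced when amino acids run low, went the other way. It read 10.92, 11.03 and 11.13 in control and 10.28, 9.84 and 10.29 in dKO nerves (log2 change -0.89, SE 0.17, adjusted p = 0.00688). All dKO arrays were under all control arrays, and all 3 probe sets were called lower. In the RefSeq table, Slc38a1, Slc38a2 and Slc38a4 follow each other on chromosome 15 with no other protein-coding gene between them, and the middle one fell while both others rose.

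Slc38a6, a less studied member of the family, read 5.87, 6.91 and 6.36 in control and 7.25, 7.05 and 7.44 in dKO nerves, with control 2 just under dKO 2 (log2 change 0.87, SE 0.26, adjusted p = 0.0439). This call was lost when any array except control 2 was left out (0.61 to 0.97, adjusted p up to 0.115) and with both probe sets averaged (0.54, adjusted p = 0.0588). Slc38a10 read 11.50 to 11.79 and 11.94 to 12.45 without passing (log2 change 0.50, SE 0.17, adjusted p = 0.0759), although 2 of its 6 probe sets above the limit were called higher. For the glutamine carrier gene Slc38a3 the change was -0.05 (SE 0.13, adjusted p = 0.832), but its second probe set was called lower, at -0.53. Slc38a5, under the limit, read 3.49 to 4.16 and 3.23 to 3.44.

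**Figure D2:**
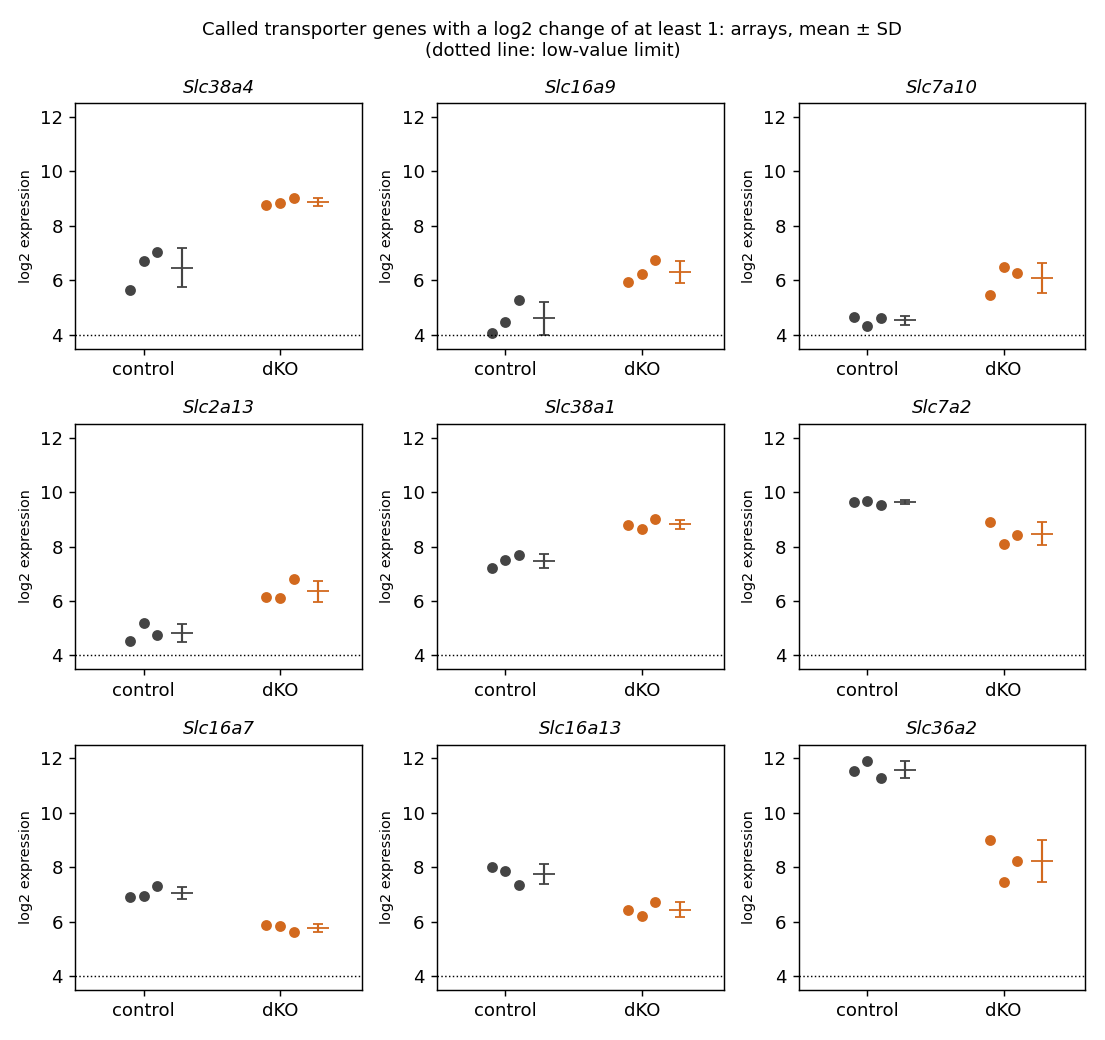
Log2 expression of the 9 transporter genes called with a log2 change of at least 1 in size, with points for the 3 control and 3 dKO arrays, the mean and SD beside them, and a dotted line at the limit of 4. Control and dKO points are separate in all 9, and Slc36a2 goes from 11.58 ± 0.31 to 8.23 ± 0.77 (SD, n = 3).

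Monocarboxylate transporter genes (Slc16) moved both ways: 2 of 12 rose and 2 fell, against 12.6% and 9.38% of all genes. Slc16a1 encodes MCT1, the main lactate carrier of Schwann and perineurial cells. It read 9.58, 9.94 and 10.40 in control and 10.84, 10.97 and 10.81 in dKO nerves (log2 change 0.90, SE 0.21, adjusted p = 0.0174). All dKO arrays were above all controls, but the call was lost without control 2 or without dKO 2 (0.85 to 0.88, adjusted p up to 0.0624). The second Slc16a1 probe set was not called (0.66, adjusted p = 0.107). Slc16a9, which encodes MCT9, a carnitine and urate carrier, read 4.08, 4.46 and 5.28 and 5.96, 6.24 and 6.74, with 2 of the control values close to the limit. It was 3.26-fold higher (log2 change 1.71, SE 0.32, adjusted p = 0.00688). Its other probe set above the limit was not called (0.37), and the change was 0.83 (adjusted p = 0.00612) with probe sets averaged.

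Slc16a7 and Slc16a13 fell. Slc16a7, which encodes MCT2, a high-affinity lactate and pyruvate carrier known from neurons, read 6.89, 6.93 and 7.31 in control and 5.87, 5.85 and 5.61 in dKO nerves. The spread was small in both groups, and the level was 2.40-fold lower (log2 change -1.27, SE 0.17, adjusted p = 0.00138). Slc16a13, which encodes MCT13, read 8.02, 7.87 and 7.35 and 6.43, 6.19 and 6.71, also apart, and was 2.47-fold lower (log2 change -1.30, SE 0.22, adjusted p = 0.00392). Its neighbour on chromosome 11, Slc16a11, had a change of 0.12 (SE 0.17, adjusted p = 0.654).

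The other MCT genes did not pass. Slc16a3, which encodes the lactate exporter MCT4, was at 0.06 (SE 0.19, adjusted p = 0.856) and Slc16a6 at 0.35 (SE 0.23, adjusted p = 0.331). Slc16a4 had the widest dKO spread of the 78 genes, with dKO 3 lowest, at 7.48, 6.81 and 5.46 against 7.01 to 7.75 in control nerves (log2 change -0.82, SE 0.46, adjusted p = 0.247). Its second probe set was at 0.08. The MCT chaperones, basigin (Bsg) and embigin (Emb), were at 0.03 (SE 0.17, adjusted p = 0.920) and 0.45 (SE 0.15, adjusted p = 0.0636).

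In the Slc7 family, 2 of 11 genes rose and 1 fell, against 12.6% and 9.38% of all genes. Slc7a10 encodes Asc-1, a light chain that exchanges glycine, serine, alanine and other small amino acids. It read 4.64, 4.34 and 4.63 in control and 5.46, 6.50 and 6.27 in dKO nerves, with dKO 1, the lowest mutant, still above every control. It was 2.90-fold higher (log2 change 1.54, SE 0.26, adjusted p = 0.00443). Asc-1 is also known from fat cells, and the adipocyte marker Fabp4, present in endothelium too, read 9.22, 10.33 and 10.88 and 12.16, 12.29 and 12.87 (log2 change 2.30, SE 0.39, adjusted p = 0.00459). Adipoq was under the limit and Cidec was at -0.28 (SE 0.19, adjusted p = 0.330). The summed level of the list (9.31 to 10.90 in control and 12.17 to 12.88 in dKO nerves) was nearly that of Fabp4 alone, so these values give no separate adipocyte level, and the part of such cells in the Slc7a10 change was not tested.

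Both main carriers of arginine and lysine changed, in opposite directions. Slc7a1, which encodes CAT1, read 9.68, 9.98 and 9.67 in control and 10.54, 10.34 and 10.47 in dKO nerves (log2 change 0.68, SE 0.15, adjusted p = 0.0140). The groups were apart, but the call was lost without control 3 or without dKO 1 (0.62 to 0.63, adjusted p up to 0.0523). Slc7a2, which encodes CAT2, read 9.64, 9.69 and 9.54 and 8.90, 8.09 and 8.44. Controls were nearly equal and dKO 2 was lowest, and the level was 2.22-fold lower (log2 change -1.15, SE 0.21, adjusted p = 0.00573). All 4 probe sets were called lower, at -1.55 to -1.15.

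Slc3a2, which encodes 4F2hc, the heavy chain partner of LAT1, LAT2, Asc-1 and others, fell slightly. It read 9.73, 9.77 and 9.69 in control and 9.25, 9.21 and 9.32 in dKO nerves, a gap wider than the spread within either group (log2 change -0.47, SE 0.13, adjusted p = 0.0323). The call was lost when any array except dKO 3 was left out (-0.49 to -0.44, adjusted p up to 0.105). Among its light chains, Slc7a5, which encodes LAT1, the carrier of leucine and other large amino acids, did not pass at 0.68 (SE 0.23, adjusted p = 0.0759). Slc7a6 and Slc7a7, which encode the y+LAT exchangers, were at 0.59 (SE 0.22, adjusted p = 0.0990) and 0.68 (SE 0.26, adjusted p = 0.0974), each with a second probe set called higher (0.60 and 0.79). Slc7a8, which encodes LAT2, was at 0.04 (SE 0.19, adjusted p = 0.891), and the other heavy chain gene, Slc3a1, at 0.11 (SE 0.13, adjusted p = 0.618).

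Of 3 genes of the Slc43 family, 2 rose, against 12.6% of all genes. Slc43a2, which encodes LAT4, a carrier of branched-chain amino acids, phenylalanine and methionine, read 10.75, 10.46 and 9.80 in control and 11.34, 11.19 and 11.34 in dKO nerves (log2 change 0.95, SE 0.23, adjusted p = 0.0217). Control 3 was the lowest and the dKO arrays were close together. The call was lost without control 2 and without each dKO array (0.93 to 1.01, adjusted p up to 0.0669), and with probe sets averaged (0.45, adjusted p = 0.0807). Slc43a3, which encodes a purine base carrier, read 8.57, 8.66 and 8.66 and 9.21, 9.18 and 9.31, tight in both groups (log2 change 0.61, SE 0.13, adjusted p = 0.0119). Slc43a1, which encodes LAT3, was at 0.46 (SE 0.21, adjusted p = 0.157).

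Related genes were also set against each other within each array. Slc38a1 minus Slc38a2 was -3.72 to -3.43 on the control arrays and -1.49 to -1.19 on the dKO arrays, on the log2 scale. Slc7a1 minus Slc7a2 was 0.03 to 0.29 and 1.64 to 2.25, and Slc16a1 minus Slc16a7 was 2.69 to 3.09 and 4.97 to 5.20. The dKO arrays were above the control arrays in each pair. The pairs were picked after their values were seen, so this is a description with no test, and a difference between probe sets is no ratio of transcript amounts.

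**Figure D3:**
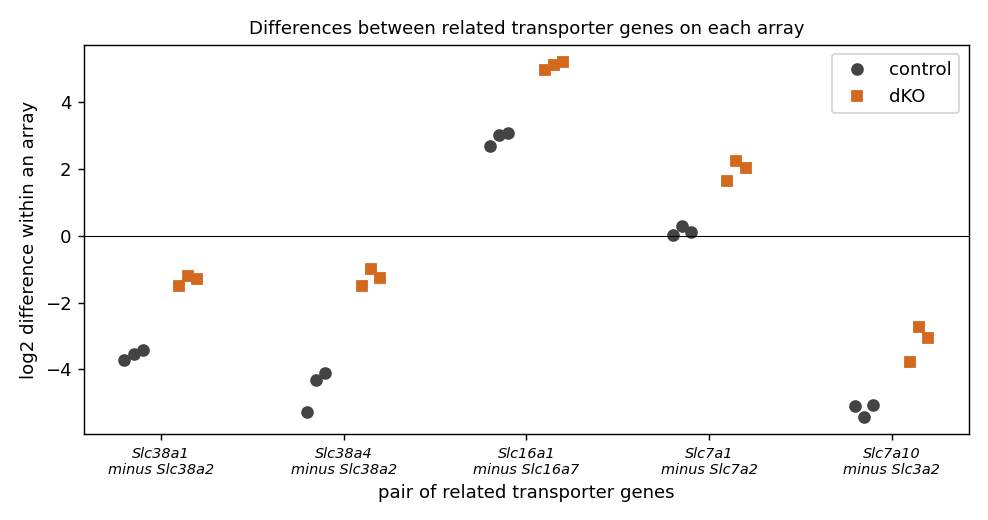
Log2 value of 1 transporter gene minus that of a related one on the same array, for 5 pairs picked after their values were seen, with separate symbols for the control and the dKO arrays. In every pair the dKO arrays lie above the control arrays, for example at 4.97 to 5.20 against 2.69 to 3.09 for Slc16a1 minus Slc16a7.

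Over all genes, 12.6% rose and 9.38% fell. Among sugar transporters, 1 of 10 Slc2 genes rose and 1 fell, and 1 of 8 Slc5 genes fell. The gene that rose, Slc2a13, encodes HMIT, a proton-coupled carrier of myo-inositol. It read 4.54, 5.18 and 4.75 in control and 6.14, 6.11 and 6.81 in dKO nerves, every dKO array being above every control, and was 2.89-fold higher (log2 change 1.53, SE 0.24, adjusted p = 0.00316). Slc5a3, which encodes the sodium-coupled myo-inositol carrier, was at -0.06 (SE 0.24, adjusted p = 0.875). Slc2a6, which encodes the lysosomal carrier GLUT6, read 6.69, 6.28 and 6.39 and 6.03, 5.89 and 5.80 (log2 change -0.55, SE 0.16, adjusted p = 0.0394). Slc5a10, a sodium-coupled sugar carrier gene known from kidney, read 5.24, 5.07 and 5.12 and 4.75, 4.61 and 4.60 (log2 change -0.49, SE 0.13, adjusted p = 0.0332). Both falls were without overlap, and both calls were lost with any 1 array left out (-0.64 to -0.43 for Slc2a6 and -0.54 to -0.44 for Slc5a10, adjusted p up to 0.109 and 0.103).

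Slc2a1, the GLUT1 gene, is also a marker of perineurial cells and of barrier endothelium. It read 10.41, 10.31 and 10.07 in control and 10.68, 10.49 and 10.99 in dKO nerves, just without overlap, and did not pass (log2 change 0.46, SE 0.18, adjusted p = 0.103). Of the 4 perineurial markers kept, Slc2a1 among them, Cldn1 rose (log2 change 1.70, SE 0.40, adjusted p = 0.0173) and Itgb4 fell (log2 change -0.62, SE 0.17, adjusted p = 0.0368), and Msln was under the limit. Slc2a1 makes up most of the list's sum. Without it, the log2 summed level was 7.81 to 8.89 in control and 9.25 to 9.43 in dKO nerves. On the dKO arrays most of that sum was Cldn1, at 8.87 to 9.10, so it gives no separate perineurial level. The perineurium had been removed, and how much of it was left in each sample was not measured. The part of perineurial cells in the Slc2a1 values was not tested. The Cldn1 call was lost without control 2 and without either dKO 1 or dKO 2 (up to 0.0584 over all alternatives), and the Itgb4 call without any array except control 1 (up to 0.119). Slc2a3, the gene of the neuronal carrier GLUT3, was at 0.01 (SE 0.21, adjusted p = 0.976), and Slc2a4, that of the insulin-responsive GLUT4, at 0.59 (SE 0.26, adjusted p = 0.148). The second Slc2a4 probe set was at 0.07.

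In the Slc1 family of glutamate and neutral amino acid carriers, 1 of 7 genes was called, against 22.0% of all genes. Slc1a3, which encodes the glial glutamate transporter GLAST, read 6.54, 5.74 and 5.92 in control and 7.11, 7.28 and 6.66 in dKO nerves (log2 change 0.95, SE 0.25, adjusted p = 0.0266). Control 1 and dKO 3 came close to each other, and 4 of the 5 probe sets above the limit were called higher, at up to 1.83. The call did not hold without control 2 or 3 or dKO 1 or 2, each on its own (0.79 to 0.91, highest adjusted p 0.0924). Slc1a2, the gene of the glutamate transporter GLT-1, was at 0.11 (SE 0.19, adjusted p = 0.731). Slc1a4 and Slc1a5, which encode the neutral amino acid exchangers ASCT1 and ASCT2, were at 0.22 (SE 0.19, adjusted p = 0.449) and 0.43 (SE 0.14, adjusted p = 0.0598), and the Slc1a5 arrays did not overlap. A second Slc1a5 probe set was at -0.03.

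Of 13 genes of the sodium- and chloride-coupled Slc6 family, 1 rose and 1 fell, against 12.6% and 9.38% of all genes. Slc6a15, which encodes a carrier of branched-chain amino acids and proline, read 6.18, 7.06 and 6.32 in control and 5.55, 5.49 and 5.55 in dKO nerves (log2 change -0.99, SE 0.23, adjusted p = 0.0166). The dKO arrays were nearly equal and all under the controls, but the call was lost without dKO 2 (-0.97, adjusted p = 0.0558). Slc6a11, which encodes the GABA transporter GAT3, read 4.12, 4.51 and 3.73 and 5.16, 5.32 and 4.62 (log2 change 0.91, SE 0.25, adjusted p = 0.0328). Control 3 was under the limit, and with it set to the limit the change was 0.82. The Slc6a11 call did not hold without control 1 or 3 or dKO 1 or 2, each on its own (0.72 to 0.91, highest adjusted p 0.108). Slc6a6, which encodes the taurine transporter, was at -0.25 (SE 0.17, adjusted p = 0.335), with 1 of 4 probe sets called lower, and Slc6a9, which encodes the glycine transporter GLYT1, at 0.64 (SE 0.21, adjusted p = 0.0601). The second Slc6a9 probe set was at -0.12.

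**Figure D4:**
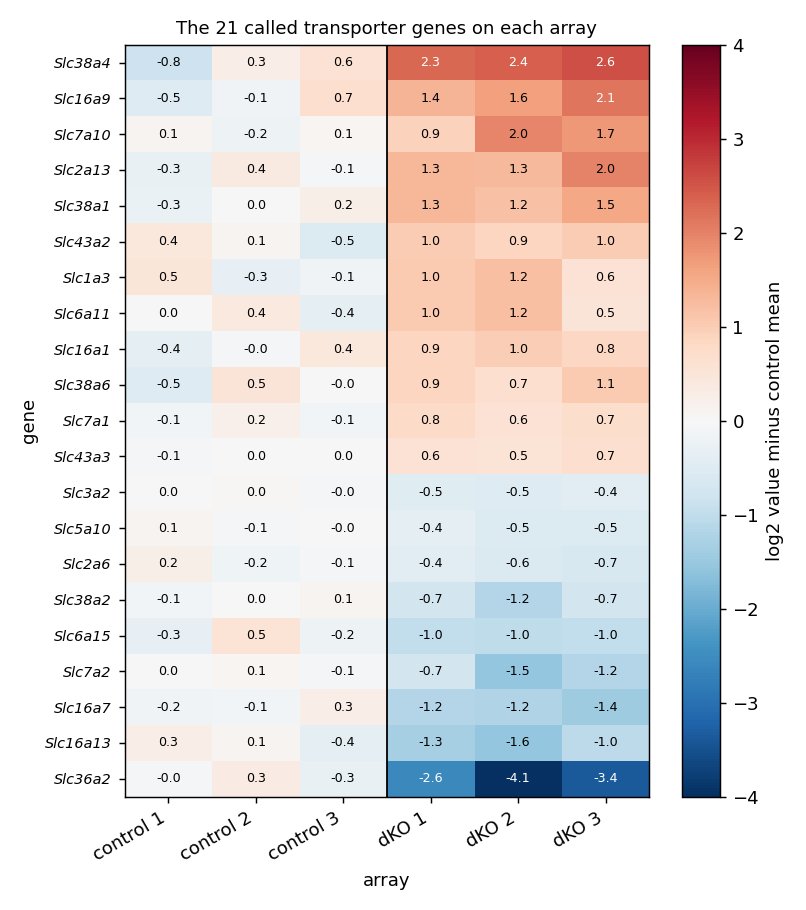
Log2 value minus the control mean (colour and printed number) of the 21 called transporter genes, in rows, on the 6 arrays, in columns. The 12 genes called higher are above every control on each dKO array and the 9 called lower are under every control, with Slc36a2 lowest on dKO 2.

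Slc6a8, which encodes the creatine transporter, read 11.21, 11.51 and 11.39 in control and 11.10, 11.09 and 10.59 in dKO nerves, without overlap, and did not pass (log2 change -0.44, SE 0.18, adjusted p = 0.123). Of 8 genes of creatine, taurine and inositol metabolism, 3 fell and 0 rose, against 9.38% and 12.6% of all genes, with a median log2 change of -0.31. Gatm, the first enzyme of creatine synthesis, read 11.15, 11.00 and 11.10 and 9.85, 9.73 and 9.40 (log2 change -1.43, SE 0.16, adjusted p = 0.000686). Ckb, which encodes brain creatine kinase, was at -0.80 (SE 0.14, adjusted p = 0.00427), and Csad, an enzyme of taurine synthesis, at -0.67 (SE 0.19, adjusted p = 0.0375). The Csad call was lost when any array except control 1 was left out (adjusted p up to 0.121 over all alternatives). Cdo1, another enzyme of taurine synthesis, had the largest change of the list, in the other direction, and did not pass. It read 4.07, 6.08 and 6.86 in control and 7.62, 7.80 and 7.30 in dKO nerves, with control 1 far under the rest and no overlap (log2 change 1.90, SE 0.60, adjusted p = 0.0569). It was called higher without control 1 (1.10, adjusted p = 0.0302) and without control 3 (2.50, adjusted p = 0.0132), and also with a limit of 6, an intensity trend or a replicate block.

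Among enzymes that use the substrates of these carriers, calls were found in both directions, beside 12.6% higher and 9.38% lower of all genes. Of 16 glycolysis and lactate genes, 5 rose and 2 fell (median 0.35). Pfkp, a phosphofructokinase gene, read 8.48, 8.35 and 8.32 in control and 10.07, 10.14 and 10.23 in dKO nerves (log2 change 1.76, SE 0.13, adjusted p = 0.000184), and Pfkfb3, whose product activates that step, was at 1.03 (SE 0.16, adjusted p = 0.00300). Pkm, which encodes pyruvate kinase, was at 0.99 (SE 0.15, adjusted p = 0.00291), and the aldolase gene Aldoc fell, at -1.14 (SE 0.22, adjusted p = 0.00768). Of 16 genes of amino acid synthesis and breakdown, 2 rose and 1 fell (median 0.25), shares that were no higher than those of all genes. They were Shmt1, which interconverts serine and glycine, at 0.70 (SE 0.13, adjusted p = 0.00664), Bcat1, which starts the breakdown of branched-chain amino acids, at 1.13 (SE 0.34, adjusted p = 0.0470), and Psph, of serine synthesis, at -0.61 (SE 0.18, adjusted p = 0.0416). The Bcat1 call was lost with any array except control 3 left out and the Psph call with any 1 array left out (up to 0.144 and 0.117 over all alternatives).

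Over all genes kept, 12.6% were called higher and 9.38% lower. Of 7 glutathione genes, 1 rose and 1 fell (median 0.21), near these shares. They were Gpx1, which encodes a glutathione peroxidase, at 1.06 (SE 0.16, adjusted p = 0.00246), and Gss, which encodes glutathione synthetase, at -0.64 (SE 0.17, adjusted p = 0.0275), the latter lost without control 1 or 3 or dKO 1 or 2 (up to 0.0906 over all alternatives). Of 16 genes of nutrient sensing by the kinase complex mTORC1, 3 rose and 0 fell (median 0.08). These were Sesn2, which encodes a leucine sensor, at 1.67 (SE 0.26, adjusted p = 0.00324), Ddit4, which encodes a stress-induced inhibitor of the complex, at 1.25 (SE 0.23, adjusted p = 0.00583), and Eif4ebp1, which encodes a translation repressor under its control, at 1.03 (SE 0.19, adjusted p = 0.00619). Of 7 partners and regulators of the carriers, 1 rose and 1 fell (median 0.05), also near the shares of all genes. Txnip, whose product lowers glucose uptake, was at 1.01 (SE 0.28, adjusted p = 0.0360), and Prkca, a protein kinase C gene, at -0.87 (SE 0.23, adjusted p = 0.0310). The Txnip call was lost without control 1 or 2 or dKO 1 or 2, and the Prkca call without any 1 control or dKO 2 (up to 0.115 and 0.0988 over all alternatives).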

How the data were processed

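The log2 expression values per probe set are those the authors deposited. The submitters' processing notes list GCOS 1.2 and GCRMA but no settings, and the values themselves showed a log2 scale. Arrays were equal in distribution (median 5.77), so a shift of all genes together would not be seen. GEO's platform annotation, with symbols updated through gene IDs, gave 34958 of 45101 probe sets a single symbol, for 18194 genes. After the low-value limit, dKO was compared with control by limma 3.58.1 (lmFit and eBayes, R 4.3.3), with no covariate, on 14550 genes, with two-sided p-values adjusted by Benjamini-Hochberg over all of them. For single probe sets the adjustment covered every probe set above the limit. The fit was checked on simulated data with 200 of 14550 genes changed. It recovered 68% of changes of 1 on the log2 scale and 99% of changes of 2, and 5.65% of its calls were false. A gene that did not pass may therefore still differ. In the real data 3198 genes were called, so these rates need not hold there.

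All called transporter genes, a list of others whatever their values, and up to 4 called genes per related list were named by rule. Slc2a4, Slc3a1, Slc7a6, Slc16a4, Slc16a11, Slc36a3, Slc36a4, Slc38a10, Slc43a1 and Cdo1 were added after their values were seen. The transporter set and all lists were chosen with earlier results of these data known. Alternatives were a limit of 6, no limit, averaged or single probe sets, centred arrays, an intensity trend, a replicate block and each array left out. The number of arrays limits the precision.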

Additional observations from a re-analysis of the deposited data

How the results depend on the processing

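Over the 12 alternative fits, 11 of the 21 called transporter genes kept the call wherever they were tested: Slc2a13, Slc7a10, Slc16a9, Slc38a1, Slc38a4 and Slc43a3, which rose, and Slc7a2, Slc16a7, Slc16a13, Slc36a2 and Slc38a2, which fell. The other 10 lost it at least once, and 0 of the 21 changed sign. With each array left out in turn, 7 to 10 transporter genes were called higher and 5 to 8 lower, against 12 and 9, with the lowest of both counts without dKO 2. Over all genes, 1246 to 1585 were called higher and 891 to 1331 lower, against 1833 and 1365, the 891 without control 2. The other alternatives left these counts within 1.5 times. The labels do not say what the replicate numbers mean. Deviations from the group means correlated at r = 0.04, -0.12 and -0.23 for same-numbered arrays, and at 0.22 for control 3 with dKO 2. These values cannot show whether samples were paired, for example by litter. The replicate block gave 11 higher and 6 lower. Centring moved every change by -0.08 and took the share of higher calls from 57.3% to 49.4% over all genes and from 57.1% to 54.5% over the transporters.

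Some changes near 0 that were not called turned sign, and the cause was not tested. Averaged probe sets gave -0.08 for Slc1a2 and -0.02 for Slc2a3, and centring gave -0.06 for Slc2a3, -0.03 for Slc7a8 and -0.02 for Slc16a3. With each array left out, changes ranged from -0.05 to 0.25 for Slc1a2, -0.16 to 0.13 for Slc2a3, -0.31 to 0.16 for Slc5a3, -0.13 to 0.19 for Slc7a8, -0.10 to 0.26 for Slc16a3, -0.22 to 0.05 for Slc36a1 and -0.11 to 0.02 for Slc38a3. Weak signal limits genes near the low-value limit, such as Slc6a11.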
